A study of Mus musculus with 2 samples.

Results

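The genes described here are 6 proteases and 2 inhibitors of extracellular matrix breakdown, Mmp8, Mmp9, Mmp14, Mmp19, Mmp25, Adam8, Timp1 and Timp2, taken by symbol as 8 of the 27998 gene rows of each count table. F4/80+CD11b+ cells were sorted from the alveolar bone of male C57/B6 J mice at 8 weeks of age and sequenced in droplets, in 1 library from the control group, for which no appliance is described, and 1 library from the OTM group, in which a nickel-titanium coil spring pulled the left first molar for 7 days (OTM, orthodontic tooth movement). A total of 20 mice were divided between the groups, and the number of mice pooled into each library was not given in the sources used here. With 1 library per condition, no test between conditions was possible, and all intervals below are 95% intervals of counting error. The OTM library carries the title of a case sample, and OTM is the only treatment described. The labels call the cells macrophages, but cells with neutrophil transcripts made up 42.9% of the kept cells of the control library and 46.8% of the OTM library.

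Matrix metalloproteinases are zinc enzymes that cut collagens and other proteins of the extracellular matrix, and most are made as inactive precursors. Mmp8, a collagenase, Mmp9, a gelatinase, and Mmp25, which is anchored in the cell membrane, are known from neutrophil granules and membranes, while Mmp14 is a membrane-bound enzyme that can activate other proteases. ADAM8 is a membrane protease that sheds surface proteins from leukocytes, and the tissue inhibitors Timp1 and Timp2 bind metalloproteinases and block their active site. In bone and the periodontal ligament, these enzymes take part in the turnover of collagen when a tooth is moved.

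The 8 genes lie on 8 different chromosomes of GRCm38. Mmp8 lies at chr9:7558456-7568485 on the plus strand, Mmp9 at chr2:164940780-164955850 (plus), Mmp14 at chr14:54431612-54445364 (plus) and Mmp19 at chr10:128790910-128800824 (plus). Mmp25 lies at chr17:23628311-23645277 on the minus strand, Adam8 at chr7:139978932-139992562 (minus), Timp1 at chrX:20870166-20874735 (plus) and Timp2 at chr11:118301069-118355740 (minus). Timp2 overlaps Cep295nl on the same strand, so that its counts are uncertain to that extent, and Adam8 overlaps the microRNA gene Mir7062 on its strand. Mmp19, Mmp25, Adam8 and Timp1 also overlap genes or pseudogenes of the opposite strand.

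The tables hold counts of unique molecular identifiers (UMIs), each tagging 1 captured RNA molecule. After the filter (at least 200 genes and at most 5% mitochondrial UMIs), 2835 of 2863 control barcodes and 2052 of 2058 OTM barcodes were kept, with 14493851 and 16472699 UMIs and a median of 3998 and 6862 UMIs per cell. The libraries shared 6 barcode sequences. Levels are counts-per-million (CPM) values, for which the cells of a group were pooled and the UMIs of a gene scaled to the UMIs of all genes, so that fewer transcripts per cell and a smaller share of all RNA cannot be told apart. The median log2 ratio, OTM over control, of all genes with at least 50 UMIs was -0.20 over all cells, -0.18 in the neutrophil lineage and -0.15 in monocytes and macrophages.

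The cells formed 15 groups, clustered without any protease or inhibitor gene and named from other markers, and each name stands for cells like that type. The neutrophil lineage held 1215 control and 960 OTM cells in 6 groups. They were granulocyte progenitors, cycling and noncycling cells with specific granule transcripts, and mature neutrophils led by Stfa2, by Fpr1 or by interferon-response genes. Monocytes and macrophages held 1360 and 895 cells in 6 groups. They were classical monocytes led by Saa3 or by Ear1, cycling monocytes, interferon-response monocytes, MHC class II cells and resident macrophages. Adgre1, which encodes F4/80, lay between 1.73 and 11.8 CPM in the neutrophil groups and between 32.6 and 165 CPM in the monocyte and macrophage groups. S100a8, a gene of the neutrophil marker list, was at 22932 and 34508 CPM in the progenitors. It lay between 139028 and 227219 CPM in the other neutrophil groups and between 5330 and 60468 CPM in the monocyte and macrophage groups.

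The share of droplets counted as holding transcripts of both lineages differed between the libraries. Of neutrophil-lineage cells, 4.61% of control and 1.25% of OTM cells had over 2500 CPM of monocyte genes. Among monocyte and macrophage cells, 7.13% of control and 12.6% of OTM cells had over 5% of their UMIs from the neutrophil list, which includes S100a8. Whether these UMIs came from neutrophils or were the cells' own was not tested. Values without these mixed droplets stand beside the results that they touch. A group led by Prss34 and Mcpt8, proteases known from basophils, held markers of nonclassical monocytes and mostly such droplets (61.3% and 77.9%). It stayed unnamed and outside both lineages.

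Levels of 5 of the 8 genes, Mmp8, Mmp9, Mmp25, Adam8 and Timp2, were highest in a mature neutrophil group in both libraries when all cells were counted. With each library clustered alone this held for 5 genes in control but for 2 in OTM. The plot of levels by cell group gives the levels without mixed droplets. Mmp14 was highest in the resident macrophages, and Mmp19 and Timp1 in the interferon-response monocytes, without standing apart from the next group beyond counting error. The neutrophil lineage held 71.8% of all Mmp8 UMIs in the control library and 58.7% in the OTM library, and 81.0% and 75.9% of Mmp9 UMIs. By contrast, it held 1.52% and 2.29% of Timp1 UMIs and 7.41% and 7.04% of Mmp19 UMIs. Timp1 was thus nearly absent from the lineage that held most Mmp8 and Mmp9 UMIs.

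**Figure D1:**
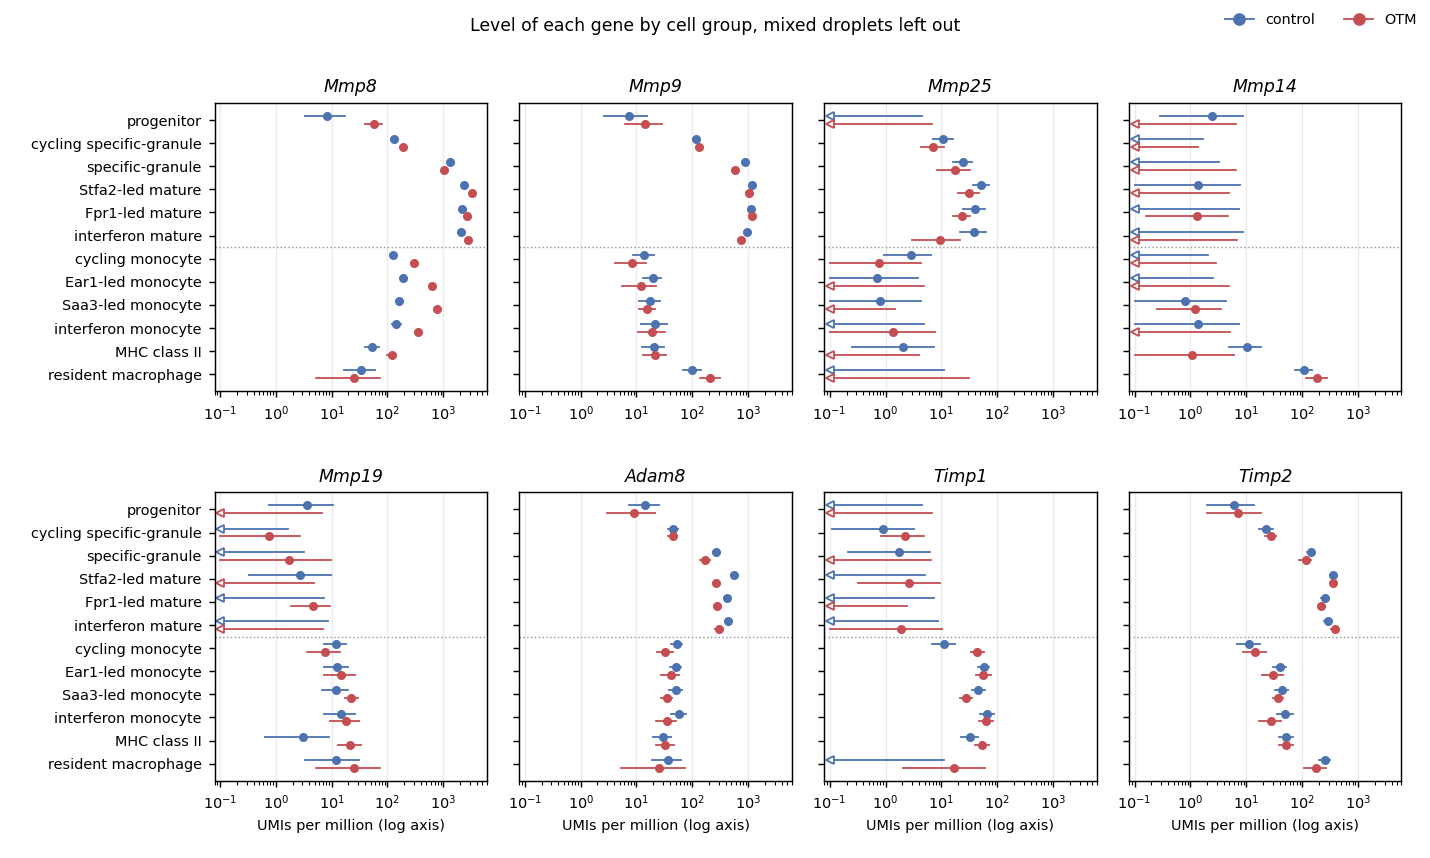
Level of each gene in CPM (log axis) in 12 cell groups of the control and OTM libraries, without mixed droplets. Dots are levels with 95% counting intervals, open triangles at the left edge mark 0 UMIs, and the dotted line separates neutrophil groups (above) from monocyte and macrophage groups (below). The level of Mmp8 in every monocyte group is higher in OTM than in control, whereas Mmp9 is not.

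Over all kept cells, all 8 genes had at least 50 UMIs over both libraries, and 0 of them was at least 2-fold higher or lower in OTM, against 1.52% (higher) and 5.54% (lower) of 9409 genes. For the neutrophil lineage, 5 genes passed this minimum and 0 reached 2-fold, against 1.59% and 5.4% of 6872 genes. In monocytes and macrophages 7 genes passed, and 1, Mmp8, was at least 2-fold higher, against 2.02% higher and 4.72% lower of 8200 genes. The median log2 ratio of the genes that passed was 0.10, 0.05 and 0.05 in the same order.

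Within groups, 62 pairs of gene and group passed the minimum, of which 9 were at least 2-fold higher and 2 were lower in OTM. The higher ones were Mmp8 in 5 groups, Timp1 in 2, and Mmp9 and Adam8 in 1 each, and both lower ones were Adam8. The background of these counts, as the share of tested genes at least 2-fold higher and lower, differed between groups. Along the neutrophil stages it was 4.63% and 2.55% in progenitors, 1.34% and 2.68% in cycling and 2.04% and 7.39% in noncycling specific granule cells. It was 5.07% and 9.32% in Stfa2-led, 4.51% and 3.34% in Fpr1-led and 5.31% and 6.75% in interferon-response mature neutrophils. In monocytes it was 3.51% and 5.07% (Saa3-led), 3.64% and 5.65% (Ear1-led), 2.58% and 2.37% (cycling) and 3.32% and 3.06% (interferon-response). It was 3.15% and 2.91% in MHC class II cells, 6.01% and 5.94% in resident macrophages, 4.02% and 5.46% in the Prss34-led group, and 9.14% and 27% in B cells, the group with the most calls.

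**Figure D2:**
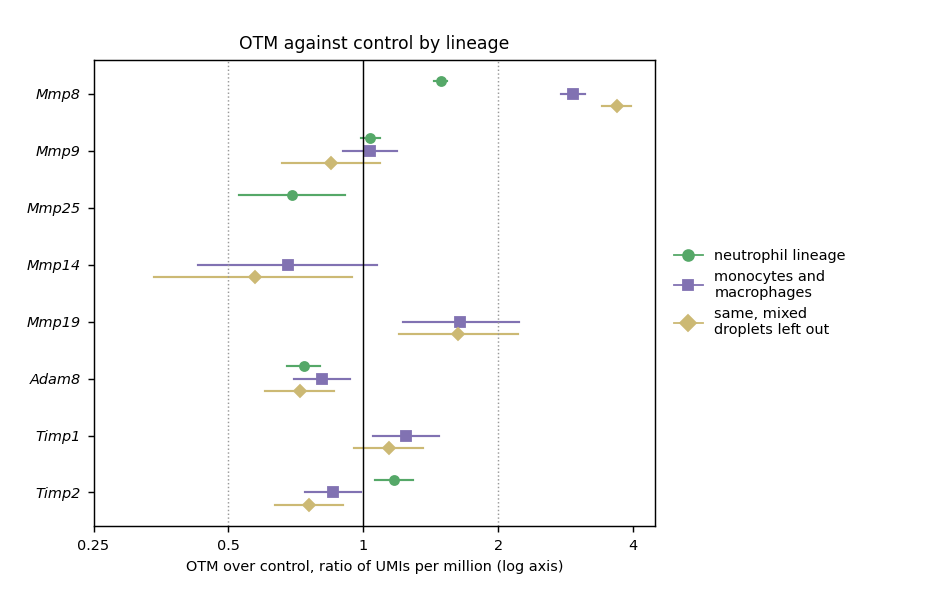
Ratio of CPM, OTM over control (log axis), of each gene in the neutrophil lineage, in monocytes and macrophages, and in the latter without mixed droplets, with 95% counting intervals. Dotted lines mark 2-fold, and genes under 50 UMIs in a set of cells are not drawn. Mmp8 in monocytes and macrophages, at 2.94 and 3.67, lies past the 2-fold line.

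Mmp8, the collagenase, was at 536 CPM in the control library and at 946 CPM in the OTM library (ratio 1.76, interval 1.72 to 1.81). Part of this ratio came with the shares of the cell groups. With OTM levels at control shares the ratio was 1.5, and with control levels at OTM shares 1.16. Within the neutrophil lineage Mmp8 was at 911 and 1357 CPM (1.49, 1.44 to 1.54), and in monocytes and macrophages at 195 and 573 CPM (2.94, 2.77 to 3.12). The cells of the latter contributed 18.1% of all Mmp8 UMIs in control and 27.9% in OTM.

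Along the neutrophil stages, Mmp8 was lowest in the progenitors, with 7 UMIs in control and 36 in OTM (8.40 and 62.3 CPM). The cycling cells with specific granule transcripts were at 124 and 183 CPM, and the noncycling ones at 1292 and 1054 CPM. Mature neutrophils held the highest levels, and all 3 mature groups were higher in OTM. The Stfa2-led group was at 2256 and 3313 CPM (1.47, 1.38 to 1.56), the Fpr1-led group at 2099 and 2571 CPM (1.22, 1.15 to 1.31) and the interferon-response group at 2050 and 2716 CPM (1.33, 1.22 to 1.44). The specific granule stage was the exception, with a ratio of 0.815 (0.742 to 0.896).

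Among monocytes, Mmp8 was at least 2-fold higher in OTM in all 4 classical groups. In the Saa3-led group it was at 206 CPM in control and 793 CPM in OTM (3.85, 3.4 to 4.38, where 3.51% of genes were as much higher), and in the Ear1-led group at 276 and 697 CPM (2.52, 2.25 to 2.84, 3.64% of genes). The cycling monocytes were at 142 and 332 CPM (2.35, 2.02 to 2.74, 2.58% of genes) and the interferon-response monocytes at 215 and 452 CPM (2.10, 1.75 to 2.52, 3.32% of genes). Neutrophil transcripts were also higher in the Ear1-led group of OTM when all cells were counted, with Camp at 2746 and 6846 CPM and S100a8 at 13832 and 43628 CPM. In the MHC class II cells the ratio was 1.82 (1.49 to 2.24). The control levels of the 4 monocyte groups lay between 142 and 276 CPM and the OTM levels between 332 and 793 CPM. The 4 groups are parts of 1 library per condition and not replicates.

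Without mixed droplets, the monocyte and macrophage level of Mmp8 was 134 CPM (126 to 143) in 1263 control cells and 493 CPM (476 to 511) in 782 OTM cells, and the ratio was 3.67 (3.41 to 3.96, with 2.05% of genes at least 2-fold higher and 4.66% lower). The ratio without them was 4.70 in Saa3-led, 3.21 in Ear1-led, 2.33 in cycling and 2.42 in interferon-response monocytes, and 2.27 in MHC class II cells. In the Prss34-led group 9 UMIs in 63 control cells and 61 UMIs in 33 OTM cells were left (7.15, 3.53 to 16.4). The resident macrophages were different. All their cells gave a ratio of 3.96, but without mixed droplets 11 UMIs in 49 control cells and 3 UMIs in 12 OTM cells remained, at 33.4 and 25.2 CPM.

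**Figure D3:**
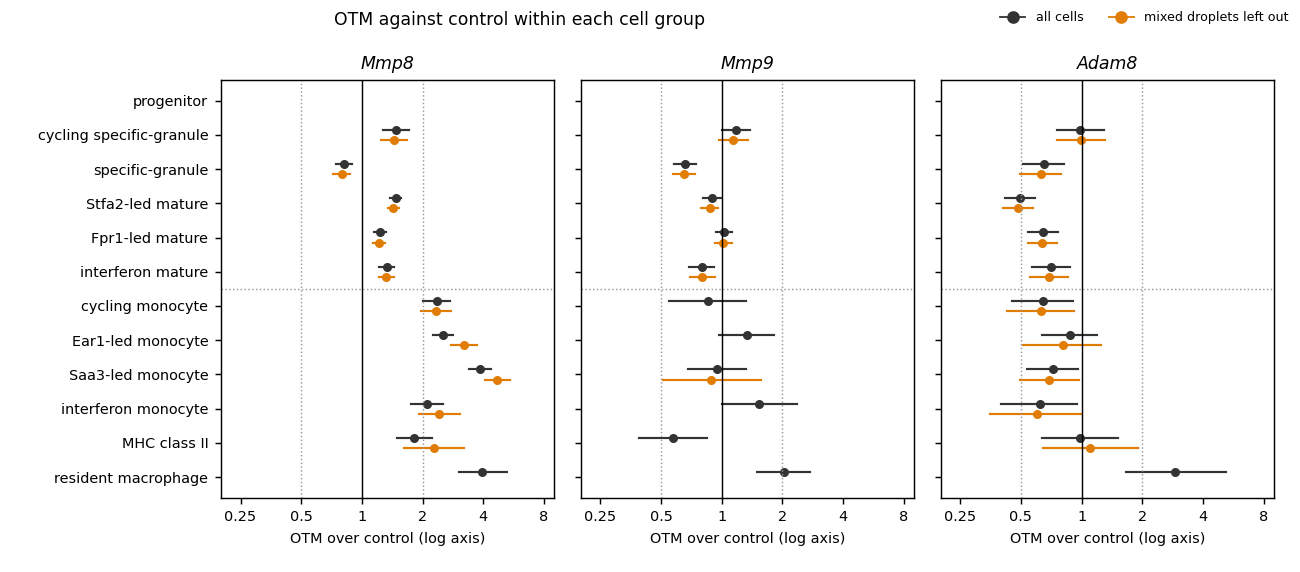
Ratio of CPM, OTM over control (log axis), of Mmp8, Mmp9 and Adam8 within each cell group, over all its cells and without mixed droplets, with 95% counting intervals. Groups with fewer than 50 UMIs of a gene are not drawn, dotted vertical lines mark 2-fold and the horizontal one separates the lineages. Mmp8 is past 2-fold in the 4 monocyte groups, Mmp9 lies on either side of 1 and Adam8 is below 1 in most.

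Since the OTM cells had more UMIs, the share of cells with Mmp8 was also taken after each cell was thinned to 1 fixed number of UMIs, between 1000 and 2000. In monocytes and macrophages without mixed droplets, 19.8% of control and 48.5% of OTM cells had at least 1 Mmp8 UMI after thinning, and 39.4% and 76.6% before it, at median depths of 4321 and 7476 UMIs. Granulocyte progenitors, which should largely lack Mmp8, had a thinned share of 1.49% in control and 5.26% in OTM (median depths 12259 and 14186 UMIs). B cells without mixed droplets, which should lack it too, had 15.3% of 59 control cells and 17.6% of 17 OTM cells (3572 and 4199 UMIs). The OTM share in monocytes and macrophages was above the intervals of both, and the control share lay within the interval of the control B cells. By level, Mmp8 was higher in OTM in these cells too. Progenitors without mixed droplets had 7 and 32 UMIs (6.88, 2.98 to 18.5), under the minimum for a call. B cells with at most 2500 CPM of monocyte genes were at 54.7 and 294 CPM, the latter from 1 cell, and the others at 133 and 406 CPM. The ratio in monocytes and macrophages was 3.67, and the part of RNA from other cells was not tested.

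Genes of the neutrophil list, and Mmp9, were set beside Mmp8 on a common scale. The scale was the level in monocytes and macrophages without mixed droplets, in percent of the level in mature neutrophils of the same library. Mmp8 was at 6.23% in control and 17.6% in OTM. Mmp9 was at 2.02% and 1.79%, Retnlg at 1.76% and 1.53%, Ngp at 3.42% and 2.80%, Camp at 4.19% and 3.59%, and Cxcr2 at 6.22% and 5.64%. S100a8 went from 1.57% to 3.4%, and Csf3r, which monocytes also transcribe, was at 26.6% and 28.6%. All of these but Mmp8 and Mmp9 belong to the list that defined mixed droplets, so that their levels were limited by leaving those out. By group, the Ear1-led monocytes had Mmp8 at 8.90% and 22.05% and S100a8 at 1.5% and 4.50%, but Camp at 4.44% and 3.76%. In the Saa3-led monocytes Mmp8 was at 7.55% and 27.4%, S100a8 at 1.33% and 4.24% and Camp at 4.11% and 3.41%. S100a8 was thus higher in OTM along with Mmp8 in these groups, and Mmp9 and Camp were not.

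**Figure D4:**
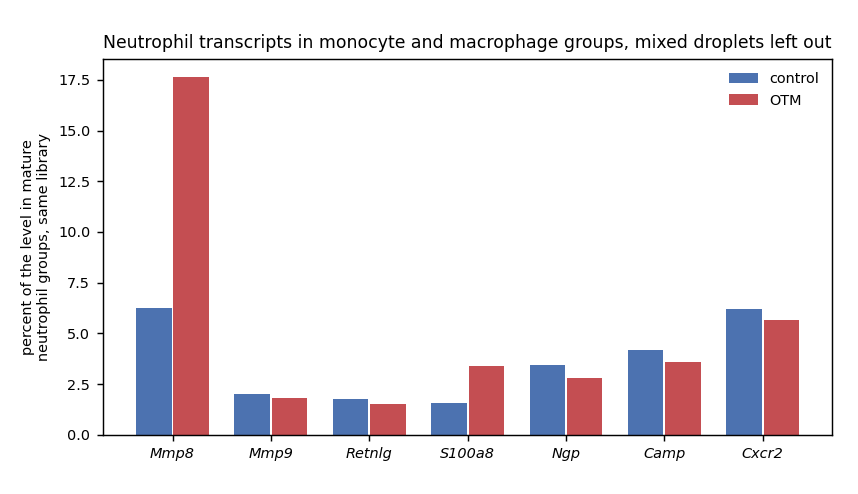
Level of 7 neutrophil transcripts in monocytes and macrophages without mixed droplets, in percent of the level in the mature neutrophil groups of the same library. Bars start at 0, with 1 value per library. Mmp8 stands at 6.23% in control and 17.6% in OTM, and S100a8 is also higher in OTM, whereas Mmp9, Retnlg, Ngp, Camp and Cxcr2 are slightly lower.

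Saa3, an acute phase transcript, was at 941 CPM in the Saa3-led monocytes of the control library and at 15349 CPM in those of the OTM library. Monocytes and macrophages without mixed droplets were therefore divided by their own Saa3 level. Below 1000 CPM of Saa3, Mmp8 was at 127 CPM in 1159 control cells and at 238 CPM in 303 OTM cells. Between 1000 and 5000 CPM it was at 208 CPM (76 cells) and 358 CPM (108 cells), and from 5000 CPM on at 224 CPM (152 to 318) in 28 control cells and 749 CPM (718 to 781) in 371 OTM cells. The level of Mmp8 was thus higher in OTM in every class of Saa3, and within the OTM library it was higher with more Saa3. In control it was also lower below 1000 CPM (118 to 136) than between 1000 and 5000 CPM (167 to 257) or from 5000 CPM on, and the latter classes overlapped. The cell groups were not held fixed between the classes. Adam8 and Timp1 did not follow Saa3 in this way. In OTM cells Adam8 was at 38.8, 37.3 and 30.2 CPM and Timp1 at 46.0, 27.5 and 44.7 CPM over the same classes.

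**Figure D5:**
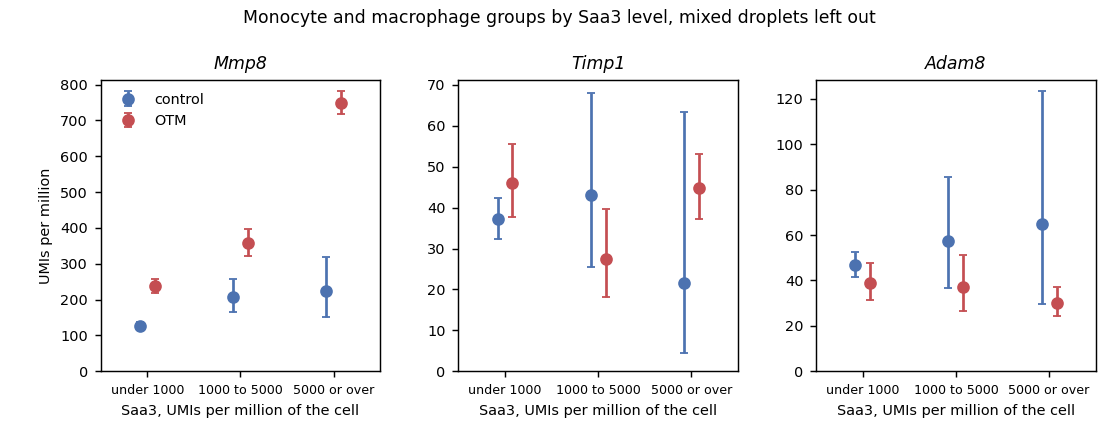
Level of Mmp8, Timp1 and Adam8 in monocytes and macrophages without mixed droplets, by the level of Saa3 in the same cell (under 1000, 1000 to 5000 and at least 5000 CPM), with 95% counting intervals. Mmp8 in OTM cells is at 238, 358 and 749 CPM from the lowest to the highest class, and control cells of the same class are lower.

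Mmp9, the gelatinase, differed little over all cells, at 274 CPM in control and 293 CPM in OTM (1.07, 1.03 to 1.12). With OTM levels at control shares of the groups the ratio was 0.90, and with control levels at OTM shares 1.11, so that the direction over all cells was that of the shares. Neutrophil-lineage cells held Mmp9 at 525 and 544 CPM (1.04, 0.988 to 1.09). Its level at the specific granule stage was 886 CPM in control and 580.5 CPM in OTM (0.655, 0.578 to 0.741). Mature groups were at 1139 and 1019 CPM (Stfa2-led, 0.895), 1114 and 1141 CPM (Fpr1-led, 1.02) and 944 and 750 CPM (interferon-response, 0.795, 0.691 to 0.915). Unlike Mmp8, Mmp9 was not higher in OTM beyond counting error in any mature group.

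In monocytes and macrophages Mmp9 was at 55.6 and 57.5 CPM (1.03, 0.900 to 1.19), and without mixed droplets at 21.9 and 18.6 CPM (0.848, 0.658 to 1.09). Resident macrophages were at 195 and 396 CPM (2.03, 1.5 to 2.75), 1 of the 3 genes past 2-fold there beside Mmp8 and Adam8, where 6.01% of genes were as much higher. Without mixed droplets 33 UMIs in 49 control cells and 25 UMIs in 12 OTM cells were left (100 and 210 CPM). In the thinned mature neutrophils, 78.8% of control and 74.3% of OTM cells held both Mmp8 and Mmp9, and the products of the single shares were 77.3% and 72.7%.

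Mmp25, the membrane-anchored enzyme of neutrophils, had 158 UMIs in control and 132 in OTM (10.9 and 8.01 CPM, 0.735, 0.579 to 0.932). The neutrophil lineage held 80.4% and 73.5% of them, at 20.7 and 14.4 CPM (0.694, 0.527 to 0.911). Over all mature neutrophils it was at 43.3 CPM (34.0 to 54.4) in control and 22.4 CPM (17.2 to 28.6) in OTM. By mature group it was at 50.02 and 31.3 CPM (Stfa2-led), 38.6 and 22.5 CPM (Fpr1-led) and 37.2 and 9.28 CPM (interferon-response, 16 and 5 UMIs). All 3 were lower in OTM, but the intervals of the ratios in the first 2 groups included 1, and the last had too few UMIs. Progenitors had 0 UMIs in both libraries, and the floor of 3 UMIs stood for 3.60 CPM in control and 5.19 CPM in OTM.

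Adam8, the membrane sheddase, was lower in OTM in most groups. Over all cells it was at 128 and 96.8 CPM (0.758, 0.709 to 0.811), and at control shares of the groups the ratio was 0.69. In the neutrophil lineage it was at 203 and 149 CPM (0.735, 0.676 to 0.800). The Stfa2-led mature neutrophils were at 536 CPM in control and 266 CPM in OTM (0.497, 0.418 to 0.589), past 2-fold lower as were 9.32% of genes there. The Fpr1-led group was at 415 and 267 CPM (0.643, 0.544 to 0.761), the interferon-response group at 430 and 303 CPM (0.704, 0.567 to 0.874) and the specific granule stage at 258 and 168 CPM (0.651, 0.513 to 0.819). The cycling stage, at 44.3 and 43.7 CPM, did not differ beyond counting error (0.986, 0.752 to 1.30). In the same mature cells, Mmp8 was thus higher and Adam8 lower in OTM.

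Monocytes and macrophages held Adam8 at 58.4 and 47.3 CPM (0.810, 0.701 to 0.934), and at 47.9 and 34.6 CPM without mixed droplets (0.722, 0.605 to 0.861). It was lowest against control in the interferon-response (0.621) and cycling monocytes (0.642). MHC class II cells were at 42.2 and 41.4 CPM (0.982, 0.634 to 1.52). Resident macrophages went the other way, at 49.96 and 145 CPM (2.90), but were at 36.4 and 25.2 CPM without mixed droplets (12 and 3 UMIs). B cells had a ratio of 0.432 (27% of genes were as much lower), from 37 and 24 UMIs, and 6 and 4 UMIs without mixed droplets.

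Windows of 300 bases around the annotated starts (RefSeq, GRCm38.p6, 250 bases before to 50 after the start, coding strand) are printed for Mmp8 and Adam8, which shared their highest groups but had opposite ratios in mature neutrophils, and for Timp1, which was nearly absent from neutrophils. Windows were found for 6 of the 8 genes, not for Mmp9 and Mmp19. Capitals mark matches on either strand to the letters TTNNGNAA (C/EBP) and AGGAAG (PU.1), both names of factors known in myeloid cells.

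Mmp8, chr9:7558179-7558478, plus strand: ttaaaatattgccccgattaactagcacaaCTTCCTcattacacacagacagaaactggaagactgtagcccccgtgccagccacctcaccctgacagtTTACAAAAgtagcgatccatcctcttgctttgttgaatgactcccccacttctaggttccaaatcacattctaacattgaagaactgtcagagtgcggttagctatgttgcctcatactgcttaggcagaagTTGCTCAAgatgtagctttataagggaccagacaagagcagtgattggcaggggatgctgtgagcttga
Adam8, chr7:139992513-139992812, minus strand: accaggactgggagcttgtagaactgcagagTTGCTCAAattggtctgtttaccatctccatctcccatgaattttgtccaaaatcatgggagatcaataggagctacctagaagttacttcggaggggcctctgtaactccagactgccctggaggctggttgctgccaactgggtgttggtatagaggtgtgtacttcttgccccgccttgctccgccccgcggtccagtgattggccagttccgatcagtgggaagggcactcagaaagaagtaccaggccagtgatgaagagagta
Timp1, chrX:20869916-20870215, plus strand: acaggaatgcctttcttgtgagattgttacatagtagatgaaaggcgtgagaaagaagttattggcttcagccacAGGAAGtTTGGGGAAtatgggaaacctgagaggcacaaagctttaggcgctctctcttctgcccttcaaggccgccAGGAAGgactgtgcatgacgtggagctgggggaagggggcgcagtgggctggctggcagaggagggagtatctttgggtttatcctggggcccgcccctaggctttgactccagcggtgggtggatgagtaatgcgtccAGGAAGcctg

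The Mmp8 window held 2 matches of the C/EBP letters, at positions -151 to -144 and -19 to -12 from the start, and 1 of the PU.1 letters. The Adam8 window held 1 C/EBP match, at -219 to -212, with the same 8 bases as the Mmp8 match nearest to the start. Timp1 had 1 C/EBP and 3 PU.1 matches. Mmp14 had 1 and Mmp25 had 2 PU.1 matches, and Timp2 had no match. No match overlapped another. Of 32851 windows, 40.7% held the C/EBP letters and 35.4% the PU.1 letters. The AP-1 letters TGANTCA, in 7.81% of windows, were in none of the 6.

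Mmp14, the membrane-bound activator, was rare, with 54 UMIs in control and 45 in OTM (3.73 and 2.73 CPM, 0.733, 0.482 to 1.11). Resident macrophages held 66.7% and 51.1% of them, at 85.6 and 90.1 CPM (1.05, 0.595 to 1.82). With OTM levels at control shares of the groups the ratio over all cells was 0.98, and with control levels at OTM shares 0.67. In monocytes and macrophages Mmp14 was at 6.80 and 4.62 CPM (0.680, 0.428 to 1.07, and 0.573, 0.341 to 0.945, without mixed droplets), and the MHC class II cells had 10 UMIs in control and 1 in OTM. The resident group was small, at 64 control and 28 OTM cells. Of its cells, 11 and 4 had at least 2 genes of an osteoclast list. Their Mmp14 level was 187 CPM (124 to 271) in control and 230 CPM (136 to 363) in OTM, against 29.5 and 28.3 CPM in the other 53 and 24 cells. The Mmp14 UMIs of the former were 28 in 8 control cells and 18 in only 2 OTM cells. Ctsk, the collagen-cutting cathepsin of osteoclasts and a gene of that list, was at 1331 and 1710 CPM in the former (from 9 and 2 cells). In the latter it was at 1 and 0 UMIs. Mmp9 in the former was at 167 and 562 CPM, against 210 and 322 CPM in the other cells. These cells include mixed droplets, and neutrophil transcripts differed in the same direction in the former, with S100a8 at 2040 and 45574 CPM and Mmp8 at 1 and 61 UMIs. Their part in the Mmp9 values was not tested.

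Mmp19, a metalloproteinase of macrophages and other cells, had 81 UMIs in control and 142 in OTM (5.59 and 8.62 CPM, 1.54, 1.17 to 2.05). Monocytes and macrophages held 91.4% and 90.1% of them, at 10.3 and 16.9 CPM (1.65, 1.23 to 2.22), and at 11.03 and 17.9 CPM without mixed droplets (1.63, 1.2 to 2.22). By group, the Saa3-led monocytes were at 11.9 and 20.9 CPM, the interferon-response monocytes at 13.1 and 23.8 CPM and the MHC class II cells at 3.59 and 20.2 CPM. The interferon-response monocytes (11 and 19 UMIs) and the MHC class II cells (4 and 21 UMIs) were under the minimum for a call. So were the Ear1-led monocytes (18 and 13 UMIs) and the cycling monocytes (21 and 12 UMIs). From these few UMIs the ratio was 5.63 (1.90 to 22.6) in MHC class II cells and 0.693 (0.311 to 1.47) in cycling monocytes. These intervals did not overlap, those of the other monocyte and macrophage groups overlapped both, and the difference was not tested.

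Timp1, the secreted inhibitor, had 263 UMIs in control and 393 in OTM (18.1 and 23.9 CPM, 1.31, 1.12 to 1.54). The neutrophil lineage had 4 and 9 UMIs in all, 0 and 3 of them in mature neutrophils. Monocytes and macrophages were at 34.5 and 42.9 CPM (1.24, 1.05 to 1.47), and without mixed droplets at 37.2 and 42.4 CPM (1.14, 0.954 to 1.36). The groups differed in direction. Cycling monocytes were at 11.9 and 40.1 CPM (3.36, 2.04 to 5.75, and 3.90 without mixed droplets, where 2.58% of genes were at least 2-fold higher over all cells of the group), and MHC class II cells at 28.7 and 52.0 CPM (1.81, 1.15 to 2.90).

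In the Saa3-led monocytes, in which Mmp8 had its largest ratio of the classical groups, Timp1 was at 43.8 and 32.0 CPM (0.730, 0.520 to 1.03), and without mixed droplets at 45.8 and 27.6 CPM (0.601, 0.417 to 0.869). Ear1-led monocytes were at 52.3 and 51.9 CPM, and interferon-response monocytes at 59.5 and 68.8 CPM (1.16, and 0.948 without mixed droplets), which was within counting error. The Prss34-led group had 4 and 59 UMIs (7.02, 2.60 to 26.6, 4.02% of genes), and 4 and 5 UMIs without mixed droplets. After thinning, 0.95% of control and 2.43% of OTM monocytes and macrophages held both Mmp8 and Timp1, and the products of the single shares were 0.768% and 2.42%.

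Timp2, the inhibitor that also takes part in the activation of other metalloproteinases, was at 87.97 and 93.9 CPM over all cells (1.07, 0.990 to 1.15). With OTM levels at control shares of the groups its ratio was 0.98, and with control levels at OTM shares 1.10. In the neutrophil lineage it was at 123 and 144 CPM (1.17, 1.06 to 1.29), and in monocytes and macrophages at 54.8 and 46.9 CPM (0.856, 0.739 to 0.990, and 0.757 without mixed droplets). The interferon-response group of mature neutrophils was at 288 and 384 CPM (1.33, 1.06 to 1.68), but the Stfa2-led group at 348 and 361 CPM (1.04) and the Fpr1-led group at 251 and 216 CPM (0.860) did not differ beyond counting error. In monocytes the interferon-response group was lower in OTM, at 65.4 and 36.3 CPM (0.554, 0.341 to 0.885). Resident macrophages were at 238 and 235 CPM. Their interval overlapped that of the Fpr1-led mature neutrophils in both libraries.

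Across 28 profiles (14 groups in 2 libraries), the profiles of the genes on the log2(CPM + 10) scale fell into like and unlike pairs. Pearson's r was 0.93 for Adam8 and Mmp9, 0.90 for Mmp9 and Timp2, 0.86 for Mmp8 and Mmp9 and 0.73 for Mmp19 and Timp1, but -0.50 for Mmp9 and Timp1 and -0.61 for Mmp19 and Mmp25. The profiles share libraries and depth, and these values are descriptions. Among 6477 genes with at least 200 UMIs, the profile nearest to Mmp8 was that of Il1r2, the decoy receptor of interleukin 1 (0.97), followed by Samsn1 (0.95) and Stx11 (0.95). Retnlg, a resistin-like gene of mature neutrophils, was nearest to Mmp9 (0.97), Adam8 (0.95) and Timp2 (0.92). C1qc, of the complement C1q chain genes of macrophages, was nearest to Mmp14 (0.97), with Ctsk at 0.96. These profiles hold the resident group as 1, and within it Mmp14 and C1qa did not go together. In control, C1qa was at 288 CPM in the cells with osteoclast-list genes, where Mmp14 was at 187 CPM. In the other control cells C1qa was at 1647 CPM and Mmp14 at 29.5 CPM. In OTM, C1qa was at 1570 and 1865 CPM, and Mmp14 at 230 and 28.3 CPM. Il1r2, Retnlg and C1qc were among the markers that named the groups. Fam129b was nearest to Mmp19 (0.87), Cd3d to Mmp25 (0.93) and Depdc7 to Timp1 (0.94).

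Mmp8 lies in a cluster of metalloproteinase genes on chromosome 9, and its neighbours were rare. Mmp12, the elastase of macrophages, had 77 UMIs in control and 20 in OTM, Mmp13, a collagenase of bone cells, 3 and 23, and Mmp27, next to Mmp8, 13 and 18. Mmp7 had 1 and 0 UMIs, and Mmp1a, Mmp1b, Mmp3, Mmp10 and Mmp20 had 0 in both libraries. In the control library Mmp12 was found mainly in MHC class II cells (39 UMIs) and resident macrophages (23 UMIs), which held 3 and 1 UMIs in OTM, where Saa3-led monocytes held 9. Of the 23 UMIs in control resident macrophages, 22 came from 3 cells and 1 from another cell. Mmp12 was at 10.4 and 1.98 CPM in monocytes and macrophages (0.190, 0.102 to 0.334), and the interval does not cover such unevenness between cells. Mmp8 and Mmp12 thus had opposite ratios in monocytes and macrophages.

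A list of 44 other proteases, inhibitors and their receptors had 15 genes with at least 50 UMIs over all cells, of which 1 was at least 2-fold higher in OTM (1.52% of all genes tested), with a median log2 ratio of -0.22 (-0.20 over all genes), and 10 genes had 0 UMIs in both libraries. In the neutrophil lineage 10 passed and 1 was higher (1.59% of all genes), with a median of -0.12, and in monocytes and macrophages 13 passed and 1 was higher (2.02% of all genes), with a median of -0.29. The higher gene was in each case Serpinb2, an inhibitor of the plasminogen activator urokinase, with 77 UMIs in control and 1143 in OTM (13.1, 10.4 to 16.7). It was at 5.83 and 106 CPM in monocytes and macrophages (18.3, 13.4 to 25.5), and the Saa3-led monocytes held 44.8% of its OTM UMIs. Among those at least 2-fold lower were Mmp12, over all cells and in monocytes and macrophages, and Adamts10, a secreted metalloproteinase, in monocytes and macrophages (0.433, 0.242 to 0.750). Plaur, the urokinase receptor, was at 935 and 1193 CPM (1.27, 1.25 to 1.30).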

How the data were processed

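Libraries were made with the Single Cell 3′ v2 kit. The deposited values are raw counts of UMIs per gene and barcode, which the authors did not normalize. The submitters' processing notes name Cell Ranger 3.0.0, Seurat 3.0.0 and the mm10 build. The tables held fewer barcodes per library than the number of cells given in the paper, which is not explained in the sources used here.

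Barcodes with at least 200 genes and at most 5% mitochondrial UMIs were kept, and no doublets were removed, since Scrublet (scanpy 1.11.5) called 3 cells in all. Both libraries were clustered together with Seurat 5.3.0 (R 4.3.3) by canonical correlation analysis (20 dimensions, 2000 features, resolution 1.0, seed 42). The 52 genes of the protease and inhibitor list were left out of the features and of the naming markers, and other proteases and inhibitors were not. A group was named from its highest marker list where at least 3 markers were found in 5% of its cells, and states of cycling or interferon response were added. The Prss34-led group was nearest to the list of nonclassical monocytes. It stayed unnamed because the median share of UMIs from the neutrophil list in its cells, 16.5%, was over 5%. UMIs were summed over cells in Python 3.11.15 (numpy 2.4.6, scipy 1.17.1, pandas 2.3.3), with exact Poisson intervals for levels, conditional binomial intervals for ratios and Clopper-Pearson intervals for shares, each covering counting error only. Calls were ratios of at least 2-fold among genes with at least 50 UMIs in groups of at least 20 cells per library. For shares, all kept cells were thinned to 1 fixed number of UMIs, which lay below the depth of the shallowest cell. The floor for 0 UMIs is 3 UMIs. The calculation was tested on simulated counts. No p-value was computed.

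Mixed droplets were monocyte, macrophage or other cells with over 5% of UMIs from the neutrophil list, or neutrophils with over 2500 CPM of the monocyte list. This rule, and the exclusion of the Prss34-led group, were chosen after seeing the data. The genes and lists were chosen with earlier results of these data known. Named were the 8 genes, the 5 genes nearest to each by profile, and those of the list of 44 genes with at least 50 UMIs. One result of that list, and the counts of its lower genes that rest on it, are not reported here. The neighbours of Mmp8 and the division by Saa3 were chosen after values were seen, and the neutrophil transcripts set beside Mmp8 are 6 of the 7 of the neutrophil list. Positions are from GENCODE vM21 on GRCm38.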

Additional observations from a re-analysis of the deposited data

Results flagged for a closer look

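Timp2 had opposite directions in the lineages. The ratio, OTM over control, was 1.17 (1.06 to 1.29) in the neutrophil lineage, from 751 and 968 UMIs, and 0.856 (0.739 to 0.990) in monocytes and macrophages, from 395 and 355 UMIs. With 1 library per condition, the difference between the lineages was not tested. Over the alternatives, the neutrophil ratio lay between 1.00 and 1.37 and the monocyte and macrophage ratio between 0.723 and 0.974. The median gene of each lineage had a log2 ratio of -0.18 and -0.15. Timp2 overlaps Cep295nl on the same strand.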

How the results depend on the processing

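No paired analysis was possible because each condition had 1 library. Of 124 counts over the 8 genes under an alternative, 105 stayed within 1.5 times the count reported. Of the ratios over all cells and in each lineage under an alternative, 256 stayed within the interval reported and 64 moved out of it. Only Mmp8 in monocytes and macrophages had been called past 2-fold among these, and it kept its direction. Ratios within groups were not followed singly. With the filter of at least 200 genes per 1000 UMIs, 1 gene was at least 2-fold higher over all cells (Mmp19, 2.13) and 1 lower (Mmp25, 0.464), against 0 and 0, and with TMM factors (edgeR 4.0.16) 1 was higher (Mmp8, 2.06). TMM moved all log2 ratios by 0.23 over all cells and in the neutrophil lineage and by 0.17 in monocytes and macrophages. Thinning made 1 gene lower in monocytes and macrophages (Mmp14, 0.276). In the neutrophil lineage 1 gene was higher without a minimum of UMIs (Timp1, from 4 and 9 UMIs) and 1 at resolution 1.5 (Timp1, 11.2). Within groups, 9 pairs of gene and group were at least 2-fold higher, and 5 at resolution 0.5, while 2 were lower. The lower count was 4 with at least 200 genes per 1000 UMIs, with thinning and with each library clustered alone, 1 without the 5% of barcodes with the most UMIs, with means over cells, at resolution 1.5, with the protease genes among the features and without mixed droplets, and 0 with at least 200 genes and 1000 UMIs but no mitochondrial maximum, with merging without canonical correlation analysis and at resolution 0.5. With each library clustered alone, 2 genes in place of 5 were highest in a mature neutrophil group of OTM. The causes were not tested.

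Mmp8 kept a ratio above 1 under all alternatives, from 2.39 to 3.67 in monocytes and macrophages, 1.29 to 1.74 in the neutrophil lineage and 1.53 to 2.06 over all cells, and Adam8 one below 1 in each. Mmp9 lay between 0.588 and 1.25 over all cells. For Mmp14, Mmp19, Mmp25 and Timp1, with 45 to 393 UMIs per library over all cells, depth limits what can be said of single groups. Leaving out mixed droplets and pooling in the Prss34-led group were added after seeing the data.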

Other observations

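B cells without mixed droplets gave Mmp8 values that were not free of other cells. Of 59 control and 17 OTM cells, 29 and 6 had at most 2500 CPM of the monocyte list. Mmp8 was at 54.7 CPM (23.6 to 108) in the former, from 8 UMIs in 7 cells, and at 294 CPM (141 to 541) in the latter, from 10 UMIs, all in 1 cell. In the remaining 30 and 11 cells it was at 133 and 406 CPM, from 16 and 18 UMIs.

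Serpinb2 was higher in OTM outside monocytes too. In the mature neutrophils it went from 1 to 46 UMIs in the Stfa2-led group, from 7 to 87 in the Fpr1-led group and from 3 to 47 in the interferon-response group. Interferon-response monocytes were unlike the other classical monocytes, with 5 and 7 UMIs (5.95 and 8.76 CPM), whereas cycling monocytes were at 2.17 and 83.6 CPM and Ear1-led monocytes at 10.3 and 102 CPM. These are values of 1 library per condition, and no difference was tested.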
